A study of Mus musculus with 8 samples.

Results

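Chemokines and their receptors form a family of small secreted proteins and the seven-helix proteins through which cells sense them, and *Sf1:Cre;Prkar1aFl/Fl* adrenals were compared here with wild-type adrenals for all of them that the arrays name. The members were the genes whose symbol starts with Ccl, Cxcl, Ccr, Cxcr or Ackr directly followed by a digit, together with *Cx3cl1*, *Cx3cr1*, *Xcl1* and *Xcr1*. This gave 56 genes of 21905 on the arrays, 34 ligands and 22 receptors. The ligands were 19 of the CC class, 13 of the CXC class and 2 of the CX3C and XC classes, and the receptors were 10, 6 and 2 of the same classes with 4 atypical receptors. Each gene was read from its transcript cluster, the set of array probes that stands for 1 gene, and *Ccl27a* alone had a second cluster. A further 32 clusters, copies of *Ccl19*, *Ccl21* and *Ccl27*, match the naming but carry several symbols and were not counted as members.

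RNA of whole adrenals came from 4 wild-type (WT) and 4 *Sf1:Cre;Prkar1aFl/Fl* (knockout, KO) mice, with 1 array per sample. Per the study's methods, all mice were females of mixed background, 6 weeks old, and wild-type mice were littermates of the knockouts. *Sf1:Cre* is active in all steroidogenic cells of the cortex from its formation onwards, so that the knockout lacks *Prkar1a*, the regulatory subunit that holds protein kinase A (PKA) inactive, in these cells but not by design in vessels, immune cells, capsule or medulla. The samples are whole glands, with all of these cells in them and with whatever fat remained attached, and in such bulk RNA fewer cells of a type and less RNA per cell cannot be told apart. Values are log2 intensities normalized by the authors with RMA, a difference of 1 on this scale being a doubling.

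Chemokines bind heparan sulphate on cell surfaces and matrix and guide leukocytes, progenitors and vessel cells along a gradient. Their signalling receptors couple to inhibitory G proteins, whereas atypical receptors bind and internalise chemokines without that coupling and so shape how much ligand is present. Inflammatory members are induced through NF-kB or interferon signalling, and homeostatic members such as *Cxcl12* are made constantly by stroma and endothelium. The adrenal cortex holds a dense network of sinusoidal capillaries and resident macrophages, and both are known sources and targets of chemokines.

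*Prkar1a*, the targeted gene, had values of 8.70 to 9.11 in wild-type and 6.92 to 7.35 in knockout arrays (log2 difference -1.73, SE 0.12, limma adjusted p = 1.2e-05), in the direction of every label. Correlations of whole arrays were 0.988 to 0.995 among wild-type arrays, 0.990 to 0.995 among knockout arrays and 0.978 to 0.985 across them. All 10 steroidogenic cell markers had means of at least 10.50, so the tissue matched its label. Adipocyte markers differed most between arrays: their mean was 7.91 to 9.95 in wild-type and 6.67 to 8.30 in knockout arrays, and 8 of 11 fell. *Ucp1* and *Cidea* fell most, with log2 differences of -4.55 and -3.72. *Lep*, chosen after its values were seen, went the other way by 1.05 without passing (limma adjusted p = 0.23).

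Signals of different genes depend on their probes as well as on RNA, so the levels given below serve to place each gene against background and not to rank genes. Of the 56 members, 16 had a mean above the median cluster of the arrays, which was 5.87. As a guide to background, 15 genes not expected in a female adrenal (of retina, lens, inner ear, tooth, sperm, milk, heart muscle and the Y chromosome) had means of 2.75 to 5.45. A total of 23 members lay above that range and 33 lay inside it.

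**Figure D1:**
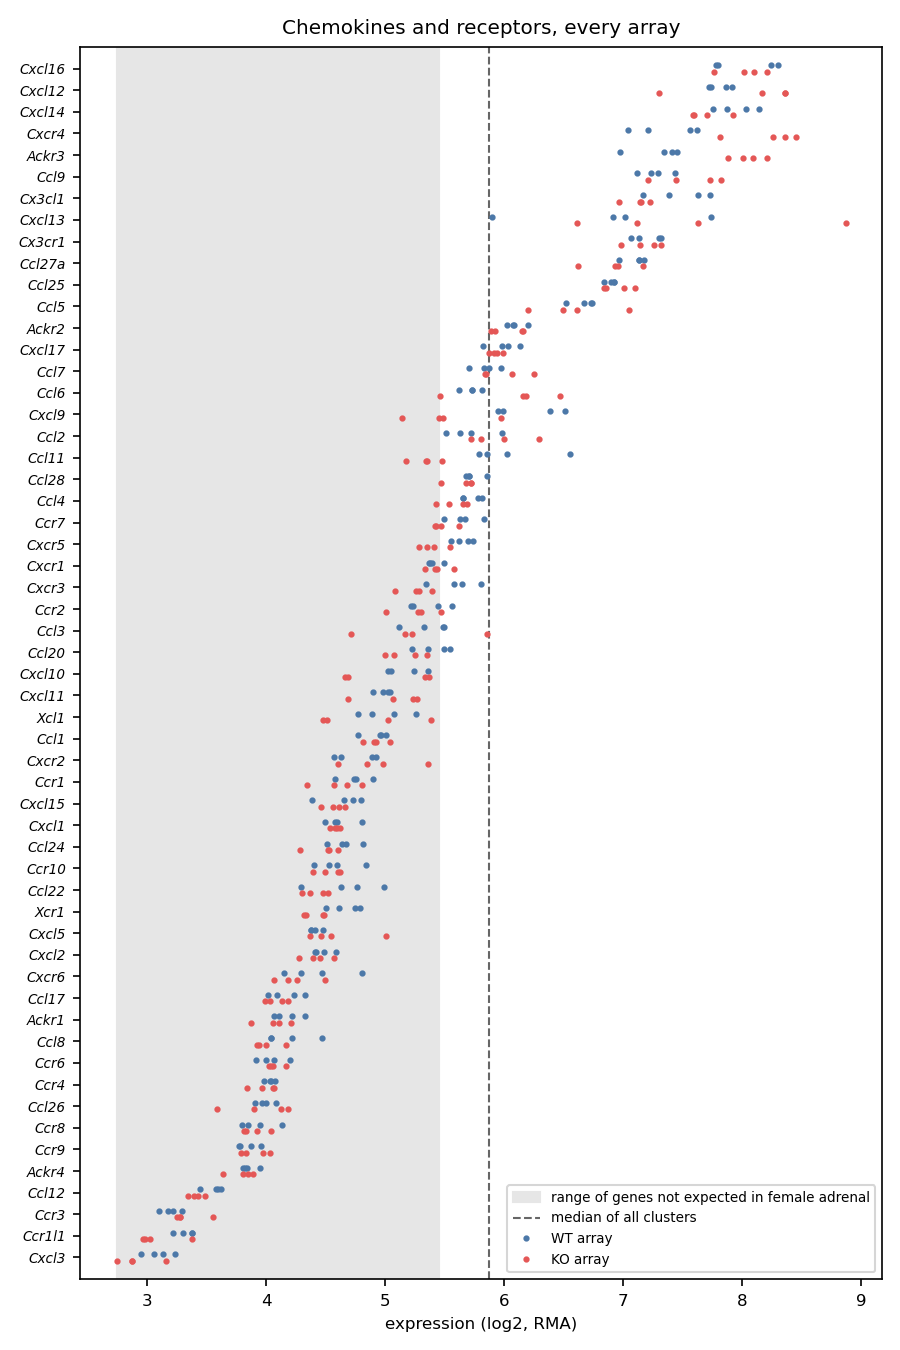
Expression (log2, RMA) of the 56 members on each of 4 wild-type (blue) and 4 knockout (red) arrays, ordered by mean for legibility. The grey band spans the means of 15 genes not expected in female adrenals (2.75 to 5.45) and the dashed line marks the median cluster (5.87); 23 members have means above the band, and *Cxcl13* has the widest spread.

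Knockout adrenals had higher *Cxcr4* and *Ackr3*, both receptors of CXCL12, and lower *Ccl11*, *Cxcl9* and *Cxcr5*. These were the 5 members of 56 that passed limma's test at an adjusted p under 0.05, 2 higher and 3 lower. With the *t*-test that the methods name, only *Ackr3* of these 5 passed. *Cxcl9* and *Cxcr5* lost their calls in 9 and 16 of 17 alternative fits. Over all 22822 clusters tested limma called 13.5%, 7.35% higher and 6.17% lower, beside 8.93% of members. Knockout arrays lay entirely above wild-type arrays for 2 members and entirely below for 3, against 10.0% and 8.95% of all clusters and 19.0% in either direction. The median log2 difference was -0.07 over members and -0.02 over all clusters, and 40 of 56 members (71.4%) had a negative difference, as did 55.4% of all clusters. No ligand was called higher and 2 of 34 were called lower, while 2 of 22 receptors were called higher and 1 lower. At an unadjusted p under 0.05 the limma fit counted 2 members higher and 9 lower. The share of all clusters at that threshold was not counted, so this split is not read as a result about the members.

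**Figure D2:**
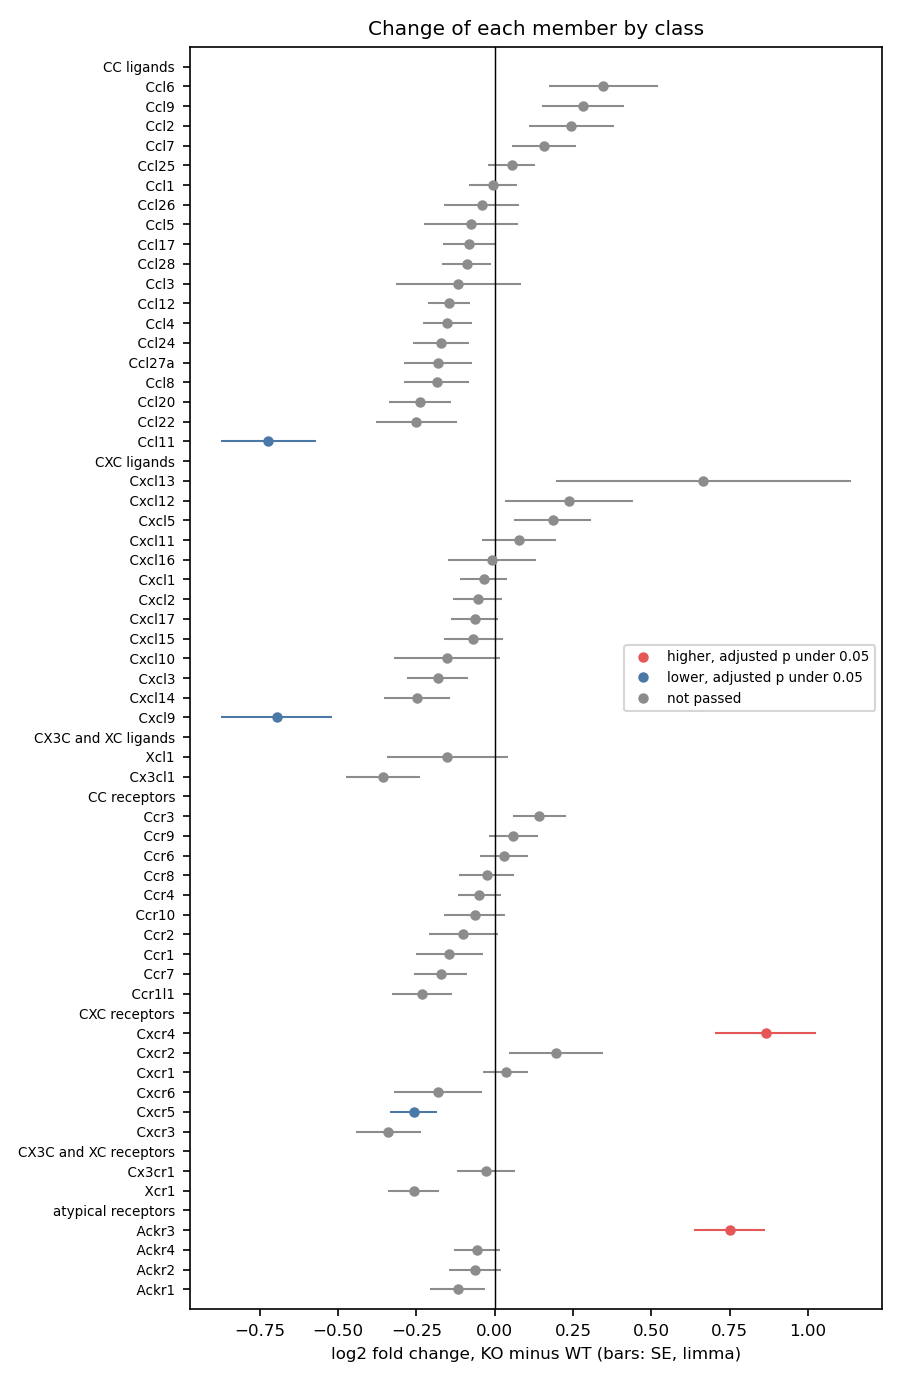
Log2 difference, knockout minus wild-type, of each of the 56 members with its SE from limma, grouped by class and ordered by size. Red and blue points passed an adjusted p of 0.05 in either direction; *Cxcr4* and *Ackr3* stand at 0.87 and 0.75, *Ccl11* and *Cxcl9* at -0.72 and -0.70, and most of the others lie slightly left of 0.

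*Cxcr4* encodes the signalling receptor of CXCL12, used by leukocytes, vascular tip cells and stem cells. Its values were 7.62, 7.04, 7.56 and 7.21 in wild-type replicates 1 to 4 and 7.82, 8.26, 8.36 and 8.45 in the knockout replicates. All 4 knockout arrays were above all wild-type arrays, with knockout replicate 1 nearest to them. The means were 7.36 ± 0.28 and 8.22 ± 0.28 (SD, n = 4 each), a 1.82-fold rise (log2 0.87, SE 0.16, limma adjusted p = 0.0049). With the *t*-test that the methods name, the same difference had an adjusted p of 0.051 with equal and 0.067 with unequal variances. The call also ended with the mean of the adipocyte markers as a covariate, where the difference was 0.83 (SE 0.27, limma adjusted p = 0.13). That mean correlated at -0.78 with genotype, so fits with it cannot separate fat from genotype.

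*Ackr3*, formerly *Cxcr7*, encodes an atypical receptor that takes up CXCL12 and CXCL11 without G protein signalling. It stood at 7.34, 6.98, 7.46 and 7.42 in wild-type and at 8.21, 8.01, 8.09 and 7.89 in knockout replicates. The genotypes did not overlap, and the gap between the highest wild-type and the lowest knockout array was wider than for *Cxcr4*. The means were 7.30 ± 0.22 and 8.05 ± 0.14 (SD, n = 4 each), a 1.68-fold rise (log2 0.75, SE 0.11, limma adjusted p = 0.0015), which also passed with both *t*-tests. With the adipocyte mean as a covariate it was 0.66 (SE 0.19) and did not pass (adjusted p = 0.086).

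*Cxcl12*, the ligand they share, is produced by stromal and perivascular cells. It had 7.86, 7.72, 7.92 and 7.74 in wild-type and 7.30, 8.37, 8.17 and 8.36 in knockout replicates. Knockout replicate 1 was the lowest of the 8 arrays and the other 3 knockout arrays were the highest. Over all arrays the difference of 0.24 (SE 0.20, 95% interval -0.21 to 0.69) did not pass (limma adjusted p = 0.52), whereas without knockout replicate 1 it was 0.49 (SE 0.08, adjusted p = 0.0047). Leaving out the lowest knockout array must raise the difference. With any other single array left out *Cxcl12* did not pass (limma adjusted p = 0.53 to 0.78). *Cxcl11*, the other ligand of ACKR3, lay within the background range, with 4.90 to 5.04 in wild-type and 4.69 to 5.27 in knockout arrays (adjusted p = 0.75).

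The mean of 10 fibroblast markers was 7.66 to 7.93 in wild-type, 7.67 in knockout replicate 1 and 8.22 to 8.32 in the other knockout replicates. Of these genes limma called 2 higher and 0 lower, and 8 did not pass. *Lum* and *Dcn*, proteoglycans of collagenous matrix, rose by 1.25 and 0.56. *Thy1* and *Fbln1*, chosen after their values were seen, differed by -0.18 and -0.13 (limma adjusted p = 0.16 and 0.61). Endothelium carries both receptors in many vascular beds, and its markers had a mean of 8.34 to 8.49 in wild-type and 8.56 to 8.77 in knockout arrays, and 5 of 10 rose. *Kdr*, *Pecam1* and *Flt1* rose by 0.44, 0.39 and 0.35. Among 6 lymphatic endothelial markers *Reln*, *Lyve1* and *Flt4* rose by 1.66, 1.36 and 0.68, and *Prox1*, the transcription factor that defines lymphatic identity, fell by 1.31. The part of vessels and stroma in the values of *Cxcr4*, *Ackr3* and *Cxcl12* was not tested.

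**Figure D3:**
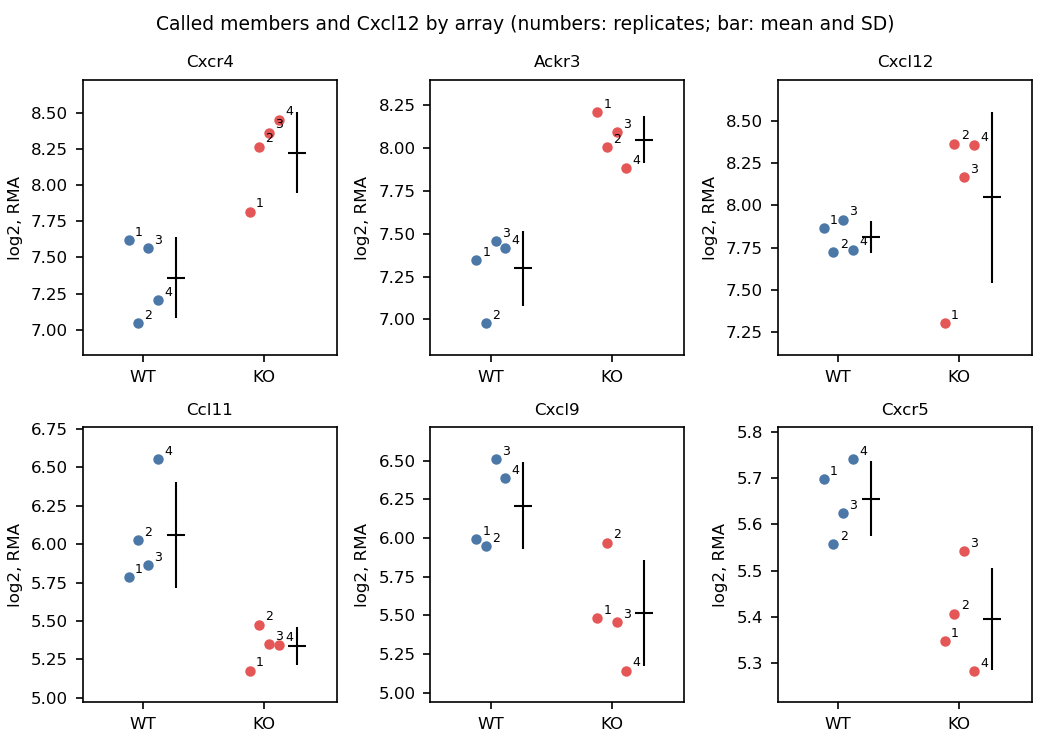
Expression (log2, RMA) of the 5 called members and of *Cxcl12* on each array; numbers are replicates, the black bar is the mean with its SD (n = 4). *Cxcr4* and *Ackr3* separate upwards, *Ccl11* and *Cxcr5* separate downwards, *Cxcl9* overlaps by knockout replicate 2, and *Cxcl12* is split by knockout replicate 1 at 7.30.

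The promoters of both receptors are shown because the genes rose together, and the cAMP response element is the classical DNA element of PKA signalling. Each run holds the 250 bases before and 50 after the start of the gene, from RefSeq on GRCm38.p6, at chr1:128592250-128592549 (minus strand) for *Cxcr4* and chr1:90203730-90204029 (plus strand) for *Ackr3*. 
Cxcr4: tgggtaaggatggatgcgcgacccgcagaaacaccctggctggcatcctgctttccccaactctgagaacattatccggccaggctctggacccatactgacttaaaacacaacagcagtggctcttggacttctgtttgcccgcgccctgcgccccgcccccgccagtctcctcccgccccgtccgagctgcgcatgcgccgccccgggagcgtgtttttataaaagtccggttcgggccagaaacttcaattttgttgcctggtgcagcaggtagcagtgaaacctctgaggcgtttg
Ackr3: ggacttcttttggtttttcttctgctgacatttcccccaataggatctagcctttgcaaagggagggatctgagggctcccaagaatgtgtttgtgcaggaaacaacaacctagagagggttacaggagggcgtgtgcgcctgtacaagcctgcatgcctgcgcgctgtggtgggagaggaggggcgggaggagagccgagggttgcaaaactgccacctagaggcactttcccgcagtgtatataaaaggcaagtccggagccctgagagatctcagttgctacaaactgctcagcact
No capitals appear because none of the 4 motifs searched on both strands was found in either: TGACGTCA (cAMP response element), GGNNTTTCC (NF-kB), GAAANNGAA (interferon-stimulated response element) and CAAGGNCA (bound by NR5A1, the factor also called SF1). This says only that these letters are not in these windows. The table held 46 promoters of 42 members, and none had TGACGTCA, found in 1.79% of all 32851 promoters.

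*Ccl11*, or eotaxin, attracts eosinophils through CCR3 and is made by fibroblasts and other stroma, fat included. It had 5.79, 6.03, 5.86 and 6.55 in wild-type and 5.18, 5.48, 5.35 and 5.34 in knockout replicates. The genotypes did not overlap, and all but 1 knockout array fell into the background range. The means were 6.06 ± 0.35 and 5.34 ± 0.12 (SD, n = 4 each), a 1.65-fold difference (log2 -0.72, SE 0.15, limma adjusted p = 0.0092). The call ended with the *t*-test (adjusted p = 0.068 with equal and 0.14 with unequal variances). With the adipocyte mean as a covariate the difference was -0.37 (SE 0.21, limma adjusted p = 0.42). That mean correlated at -0.78 with genotype, so this fit cannot separate fat from genotype.

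Its receptor *Ccr3* lay near the bottom of the background range, at 3.10 to 3.29 in wild-type and 3.25 to 3.56 in knockout arrays (log2 difference 0.14, adjusted p = 0.33). *Ccl24* and *Ccl5*, other ligands of CCR3 chosen after their values were seen, differed by -0.17 and -0.08 (adjusted p = 0.26 and 0.81). Of 9 mast cell and eosinophil markers none was called by limma. Their median difference was 0.03. The eosinophil genes *Siglecf*, *Prg2* and *Epx* had means of 4.95, 4.09 and 4.43, all within background. Among mast cell genes, chosen after their values were seen, *Cpa3* differed by -0.95 (SE 0.33, limma adjusted p = 0.087), *Mcpt4* by -0.57 and *Cma1* by -0.14. *Mcpt1*, *Tpsb2* and *Fcer1a* differed by 0.08, 0.03 and 0.03. The part of fat and of mast cells in the value of *Ccl11* was not tested.

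In the gene order of GRCm38.p6, *Ccl11* sits in a run of 6 members on chromosome 11, *Ccl2*, *Ccl7*, *Ccl11*, *Ccl12*, *Ccl8* and *Ccl1*. Only *Ccl11* of this run was called. Its neighbours differed by 0.24, 0.16, -0.15, -0.19 and 0.00 in the order given, and none of these 5 passed.

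**Figure D4:**
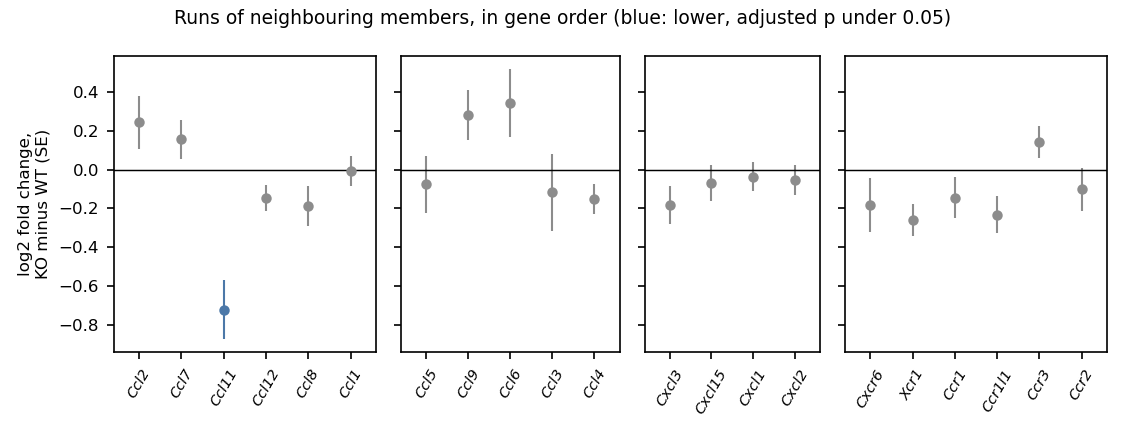
Log2 difference, knockout minus wild-type, with SE, of members that lie side by side, in gene order, for the 4 runs of at least 4 members. *Ccl11* (blue, -0.72) is the only called gene; *Ccl9* and *Ccl6* lie above 0 between *Ccl5* and *Ccl3*, and the run from *Cxcl3* to *Cxcl2* stays within -0.18 to -0.04.

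*Cxcl9* is an interferon gamma-induced ligand that draws activated T and NK cells through CXCR3. It had 5.99, 5.95, 6.51 and 6.39 in wild-type and 5.48, 5.97, 5.46 and 5.14 in knockout replicates. Knockout replicate 2 lay just above wild-type replicate 2, and the other knockout arrays were below all wild-type arrays. The means were 6.21 ± 0.28 and 5.51 ± 0.34 (SD, n = 4 each), a 1.62-fold difference (log2 -0.70, SE 0.18, limma adjusted p = 0.026). The call ended in 9 of 17 alternatives, among them the omission of wild-type replicate 3 or 4 or knockout replicate 1, 3 or 4 (adjusted p = 0.055 to 0.073), while its value stayed between -0.85 and -0.56.

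*Cxcr3*, the receptor, went the same way without passing, and its mean of 5.42 lay at the upper edge of the background range. It had 5.65, 5.35, 5.80 and 5.58 in wild-type and 5.08, 5.39, 5.26 and 5.28 in knockout replicates, and the genotypes overlapped only through the same 2 replicates as for *Cxcl9*, wild-type 2 and knockout 2. The difference was -0.34 (SE 0.10, adjusted p = 0.056), and -0.42 without wild-type replicate 2 (adjusted p = 0.020). *Cxcl10*, the closest relative of *Cxcl9* in regulation and chosen after its values were seen, had 5.02 to 5.36 in wild-type, 5.37 and 5.34 in knockout replicates 1 and 2 and 4.66 and 4.69 in replicates 3 and 4 (difference -0.15, 95% interval -0.53 to 0.23, adjusted p = 0.64). All of these values lay within the background range.

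Both *Cxcl9* and *Cxcl10* are classical targets of interferon and NF-kB signalling, and their promoters are set side by side with GGNNTTTCC and GAAANNGAA matches in capitals. They lie at chr5:92328030-92328329 and chr5:92348840-92349139, both on the minus strand of GRCm38.p6 (RefSeq).
Cxcl9: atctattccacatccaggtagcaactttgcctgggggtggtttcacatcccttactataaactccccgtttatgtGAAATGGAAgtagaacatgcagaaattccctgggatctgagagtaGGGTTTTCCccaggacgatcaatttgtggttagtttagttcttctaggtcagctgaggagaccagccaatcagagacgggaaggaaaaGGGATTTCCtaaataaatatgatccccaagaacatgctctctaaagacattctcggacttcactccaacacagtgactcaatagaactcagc
Cxcl10: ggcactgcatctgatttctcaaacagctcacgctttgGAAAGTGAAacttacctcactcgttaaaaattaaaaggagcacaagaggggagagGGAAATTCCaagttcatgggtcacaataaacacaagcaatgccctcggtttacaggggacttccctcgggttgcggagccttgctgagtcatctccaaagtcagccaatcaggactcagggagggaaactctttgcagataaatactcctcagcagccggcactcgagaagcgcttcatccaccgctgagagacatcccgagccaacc
In the *Cxcl9* promoter a GAAANNGAA match began 175 bases before the start, and GGNNTTTCC matches began 130 and 42 bases before it. In the *Cxcl10* promoter the former began 213 bases and the latter, on the other strand, 158 bases before the start. No match overlapped another. GGNNTTTCC was found in 9 of 46 member promoters (19.6%) and 5.82% of all promoters, GAAANNGAA in 7 (15.2%) and 8.56%, and CAAGGNCA in 4 (8.7%) and 6.71%. A match is a run of letters and not a tested site, and both promoters hold both motifs although only *Cxcl9* was called.

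Of the genes upstream of these ligands, *Ifng* was in the background range (mean 4.26, difference 0.01) and *Ifngr2*, a chain of its receptor, rose by 0.58 (SE 0.09, adjusted p = 0.0014). T and NK cell markers had a mean of 4.56 to 4.76 in wild-type and 4.55 to 4.84 in knockout arrays over 11 genes. *Cd28* was called higher, by 0.40, none was called lower, and the median difference of these markers was -0.04. *Ciita*, the master regulator of MHC class II genes, fell by 0.35 and was the only one of 8 antigen presentation markers called.

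*Cxcr5*, by which B cells and follicular T cells sense CXCL13, had 5.70, 5.56, 5.62 and 5.74 in wild-type and 5.35, 5.41, 5.54 and 5.28 in knockout replicates. The genotypes did not overlap, but knockout replicate 3 and wild-type replicate 2 nearly touched. The means were 5.66 ± 0.08 and 5.40 ± 0.11 (SD, n = 4 each), a 1.20-fold difference (log2 -0.26, SE 0.08, limma adjusted p = 0.048) that lost its call in 16 of 17 alternatives (adjusted p = 0.052 to 0.45 in these) and kept it without knockout replicate 3 (adjusted p = 0.030). Both means lay close to the upper edge of the background range. Of 7 B cell markers, with means of 3.78 to 5.13, none was called by limma, and their median difference was -0.21.

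*Cxcl13*, its ligand, is made by stromal cells of lymphoid tissue and by macrophages. It had 5.90, 7.02, 6.92 and 7.74 in wild-type and 6.61, 7.63, 8.87 and 7.12 in knockout replicates. Its SD within genotypes, 0.87, was larger than that of 99.8% of clusters, and the groups overlapped widely (difference 0.67, SE 0.47, 95% interval -0.38 to 1.71, adjusted p = 0.43). In either genotype the array with the lowest *Cxcl13*, replicate 1, was also lowest in the adipocyte mean (7.91 and 6.67), and the array with the highest, wild-type 4 and knockout 3, was highest in it (9.95 and 8.30). With the adipocyte mean as a covariate the difference became 2.36 (SE 0.37, adjusted p = 0.0067). That mean correlated at -0.78 with genotype over the 8 arrays, so fat and genotype are largely confounded, and the part of fat in *Cxcl13* was not tested otherwise.

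**Figure D5:**
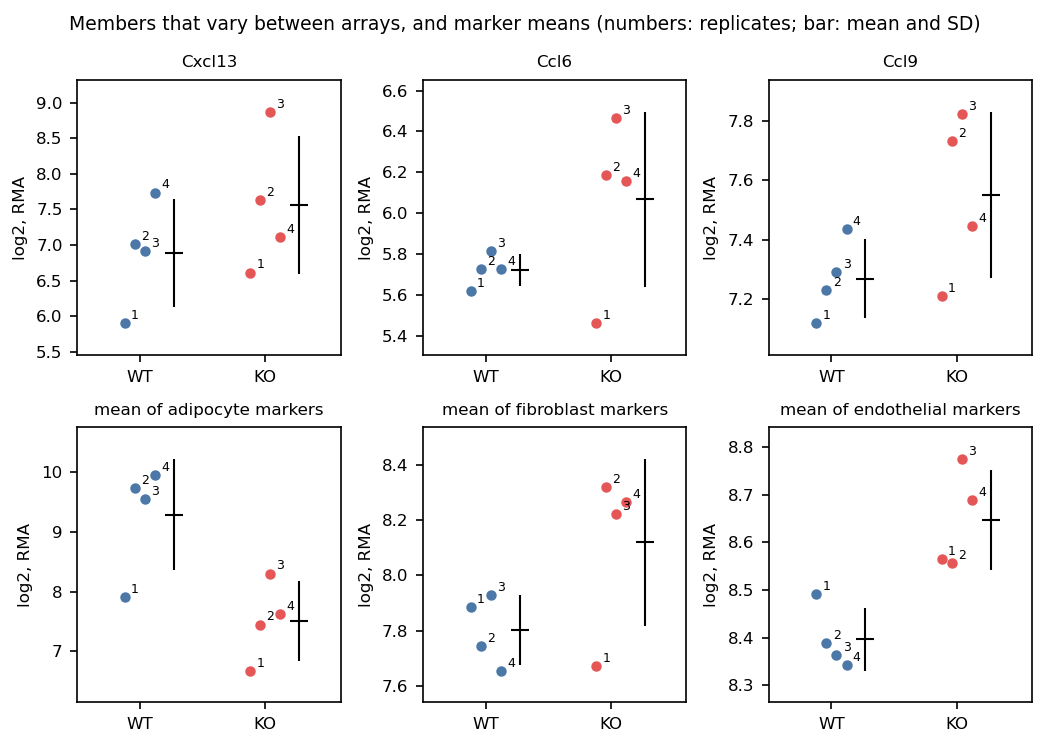
Expression (log2, RMA) of *Cxcl13*, *Ccl6* and *Ccl9*, and the mean of adipocyte, fibroblast and endothelial markers, on each array; numbers are replicates, the bar is the mean with its SD (n = 4). Replicate 1 of either genotype is lowest in *Cxcl13* and the adipocyte mean, knockout replicate 1 is lowest in *Ccl6*, and endothelial means separate the genotypes.

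Monocyte and macrophage attractants were next in size among CC ligands. *Ccl9*, a ligand of CCR1 made by macrophages, had 7.12, 7.23, 7.29 and 7.44 in wild-type and 7.21, 7.73, 7.82 and 7.45 in knockout replicates. Knockout replicate 1 lay among the wild-type arrays and the other 3 lay above them all (difference 0.28, SE 0.13, adjusted p = 0.20). *Ccl6*, its neighbour in the genome and chosen after its values were seen, had 5.62 to 5.81 in wild-type and 5.46, 6.19, 6.47 and 6.16 in knockout replicates (difference 0.35, SE 0.17, adjusted p = 0.25).

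Without knockout replicate 1, the lowest of its group for both genes, both passed, at 0.40 (SE 0.11, adjusted p = 0.044) for *Ccl9* and 0.55 (SE 0.09, adjusted p = 0.0041) for *Ccl6*. With any other single array left out neither was called. Their shared receptor *Ccr1* lay in background (4.67) with a difference of -0.14. *Ccl2*, *Ccl7* and *Ccl12*, ligands of CCR2 that recruit monocytes, differed by 0.24, 0.16 and -0.15, and *Ccr2* by -0.10 (adjusted p = 0.20 or more). Macrophage markers had a mean of 7.14 to 7.37 in wild-type and 7.17 to 7.55 in knockout arrays, lowest in knockout replicate 1 of its group. Of 15 markers *Mrc1*, the mannose receptor, rose by 0.55 and no other passed, and the part of macrophage number in *Ccl6* and *Ccl9* was not tested.

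*Cxcl16*, a membrane-bound ligand that also takes up oxidised lipid, had 8.31, 7.79, 8.25 and 7.80 in wild-type and 7.76, 8.21, 8.02 and 8.10 in knockout replicates. Its arrays were interleaved (difference -0.01, SE 0.14, 95% interval -0.32 to 0.30), and the sign turned in 5 of 18 alternatives. Its receptor *Cxcr6* lay in background (4.34). *Cxcl14*, a homeostatic chemokine of epithelia and stroma, had 8.14, 7.88, 8.03 and 7.76 in wild-type and 7.59, 7.93, 7.59 and 7.70 in knockout replicates. Only knockout replicate 2 lay within the wild-type range, and the difference of -0.25 (SE 0.10) did not pass (adjusted p = 0.16).

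*Cx3cl1*, or fractalkine, is a tethered chemokine of endothelium and neurons, and *Cx3cr1* marks the monocytes and macrophages that bind it. *Cx3cl1*, chosen after its values were seen, had 7.73, 7.38, 7.63 and 7.17 in wild-type and 6.97, 7.23, 7.14 and 7.15 in knockout replicates. Only wild-type replicate 4 lay within the knockout range (difference -0.36, SE 0.12, adjusted p = 0.078). Limma called *Cx3cl1* lower with array weights and without wild-type replicate 4. *Cx3cr1* was level between genotypes, at 7.07 to 7.32 and 6.98 to 7.32 (difference -0.03).

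*Xcr1*, which marks cross-presenting dendritic cells, had 4.74, 4.61, 4.50 and 4.79 in wild-type and 4.31, 4.33, 4.48 and 4.49 in knockout replicates. All knockout arrays were below all wild-type arrays by a narrow margin, within the background range, and the difference of -0.26 (SE 0.08) did not pass (adjusted p = 0.065). *Xcl1*, its ligand from NK and T cells, differed by -0.15 with knockout arrays on both sides of wild-type.

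The receptor and ligands that draw neutrophils lay in the background range. *Cxcr2* and its ligands *Cxcl1*, *Cxcl2*, *Cxcl3* and *Cxcl5* had means of 3.00 to 4.85 and differences of -0.18 to 0.20, and none of 10 neutrophil markers was called by limma. Knockout replicate 1 was highest of its group for *Cxcl5* (5.01), *Cxcr2* (5.36) and the neutrophil marker mean (4.63).

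The remaining members did not pass. No CC receptor was called, beside 13.5% of all clusters, and their differences ran from -0.23 to 0.14. Their means ran from 3.20 to 5.57 with a median of 4.03, and most lay in the background range. At such levels a missing call does not show that a gene was unchanged. Epithelial and lymphoid homing ligands *Ccl25*, *Ccl27a* and *Ccl28* differed by 0.05, -0.18 and -0.09. The scavenger receptors *Ackr1*, *Ackr2* and *Ackr4* differed by -0.12, -0.06 and -0.06, so *Ackr3* was the only atypical receptor of the 4 members that was called. *Ackr1* and *Ackr4* had means of 4.12 and 3.82, in the background range. *Gpr182*, an atypical receptor named outside the rule, was also called higher by limma, as given below.

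Genes that act with chemokines were read from lists, in which rose and fell mean called by limma. Beside the counts of these and the marker lists, 7.35% of all clusters were called higher and 6.17% lower. A separate limma fit of only the clusters above the median of 5.87 called 14.8% of them higher and 11.4% lower. The list counts come from the main fit, so these shares are not a direct yardstick for them. The share of main-fit calls among the brighter clusters was not counted. The lists below had median means of 5.97 to 7.38, and no list was tested as a set. Of 13 NF-kB pathway genes 5 rose and 1 fell. *Nfkb2*, which encodes the p100 precursor, *Map3k14*, the kinase NIK, and *Bcl3*, a nuclear protein of the IkB family, rose by 0.65, 0.57 and 0.54. *Rel* and *Nfkbie* rose by 0.43 and 0.26, and *Nfkbia*, the inhibitor that NF-kB itself induces, fell by 0.46. *Relb*, chosen after its values were seen, differed by 0.18 (adjusted p = 0.32). The NF-kB mean was 7.04 to 7.15 in wild-type and 7.29 to 7.35 in knockout arrays. Of 20 cytokines and cytokine receptors 3 rose, all receptors: *Tnfrsf1b* by 0.62, *Ifngr2* as given above and *Il1r1* by 0.34.

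Of 23 genes of chemokine receptor signal transduction 3 rose and 2 fell. *Ptk2b*, a calcium-sensitive kinase below these receptors, rose by 1.54, and *Grk5*, a kinase that desensitises G protein-coupled receptors, rose by 1.38. *Pik3r5*, a regulatory subunit of PI3K gamma, rose by 0.83. *Grk3*, another such receptor kinase, fell by 0.64 and *Elmo1*, which drives RAC with DOCK proteins, fell by 0.62.

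Of 16 genes that process, present or act beside chemokines 6 rose and 1 fell. *Mmp2* and *Mmp12*, proteases that trim chemokines, rose by 1.26 and 1.03, and *Sdc1*, a heparan sulphate carrier, rose by 1.20 with 6.05 to 6.11 in wild-type and 7.14 to 7.42 in knockout arrays. *Vcam1*, the endothelial adhesion molecule, rose by 0.80. *Dpp4*, the peptidase that inactivates CXCL12 and CCL11 by removing their first residues, fell by 0.76 (SE 0.18, adjusted p = 0.019). Of 7 measured chemokine genes named outside the rule *Gpr182*, an endothelial atypical chemokine receptor, rose by 0.59 (SE 0.10, adjusted p = 0.0025).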

How the data were processed

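RNA from the adrenals of 4 mice per genotype was labelled and read on Affymetrix Mouse Gene ST arrays. The deposited log2 values were made by the authors with RMA, which subtracts background, equalises array distributions and summarises probes; the methods name the R affy package without a version. A deposited table of the authors' own comparison, with fold changes and adjusted p-values, was not used. Of 28067 clusters, 22822 with 1 symbol were tested and the 1703 with several and 3542 with none were left out.

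Genotypes were compared with limma 3.58.1 in R 4.3.3 (lmFit, eBayes), two-sided, adjusted by Benjamini-Hochberg over the 22822 clusters, with a call at an adjusted p under 0.05. For its counts of changed genes the paper also required a log2 fold change beyond 1 in either direction. That cut was not applied here, and member differences ran from -0.72 to 0.87 in the main fit. Alternatives were the methods' *t*-test (equal or unequal variances), a replicate block, brighter clusters only, an intensity trend, array weights, centred or requantiled arrays, all clusters, an adipocyte covariate and each array left out. Tables were made with pandas 2.3.3 in Python 3.11.15, and the fit was tested on simulated data. The number of arrays limits the precision, and an exact permutation test of 4 against 4 cannot go below 0.0286. The members, lists and alternatives were chosen with earlier results of these data known. Named members were those called, those without overlap, the 6 with the highest mean and the listed partners of called members; lists add up to 3 called genes each, and other genes were chosen after their values were seen. Marker lists not named above are given here by calls higher and lower: zona glomerulosa 0 and 8 of 8, steroidogenic 4 and 1 of 10, chromaffin 1 and 0 of 7.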

Additional observations from a re-analysis of the deposited data

Results flagged for a closer look

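Within the 112 groups of 4 arrays formed by the members, 4 had an array far from the other 3, and chance alone flags about 1 group in 20. *Ccl28* stood at 5.85 in wild-type replicate 1 and at 5.68 to 5.71 in the others. *Cxcr1* stood at 5.49 in wild-type replicate 2 and at 5.37 to 5.39 in the others. *Ccr3* stood at 3.56 in knockout replicate 2 against 3.25 to 3.28, and *Ccr1l1*, which lies next to it in the genome, at 3.37 in the same array against 2.96 to 3.03. All but *Ccl28* had means inside the background range.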

How the results depend on the processing

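Members called higher numbered 2 and members called lower 3, beside 7.35% and 6.17% of all clusters. With the *t*-test of equal variances these became 1 and 0 (5.24% and 4.03% of all clusters), as with unequal variances (3.11% and 2.16%), with *Ackr3* the 1 called and 7 and 6 members lower at an unadjusted p under 0.05. With the adipocyte mean as a covariate they were 1, *Cxcl13*, and 0 (limma, 2.89% and 2.14% of all clusters, 4 members lower at an unadjusted p under 0.05). Restricting the fit to clusters above the median left 16 members to test, with 2 called higher and 0 lower by limma (14.8% and 11.4% of those clusters) and 2 lower at an unadjusted p under 0.05. The counts at an unadjusted p have no share of all clusters beside them and are not read as a result about the members. Leaving out 1 array at a time gave 2 to 5 members higher and 1 to 4 lower (5.76% to 6.94% and 4.56% to 5.74% of all clusters). The 5 came without knockout replicate 1 (*Ackr3*, *Ccl6*, *Ccl9*, *Cxcl12*, *Cxcr4*), and 1 lower remained without knockout replicate 1 or 4.

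*Cxcl16* turned from -0.01 to 0.0105 with array weights and to 0.0177 with centred arrays. It ran from -0.0917 to 0.0819 with 1 array left out, positive without wild-type replicate 1 or 3 or knockout replicate 1. *Ackr3* lost its call only with the covariate (0.66, SE 0.19, against 0.75, SE 0.11), and *Xcr1* passed only without wild-type replicate 3 (adjusted p = 0.040). The cause was not tested for any of these.

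Replicate numbers are shared by the genotypes, but same-numbered arrays did not deviate together (r = -0.07 to 0.07). With the replicate block 2 members were called higher and 1 lower, *Ccl11*, beside 6.24% and 5.19% of all clusters.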
